A study of Mus musculus with 5 samples.

Results

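RNA polymerase II phosphoserine 2 occupancy was examined at the genes that encode the polymerase itself and the kinases and factors that drive its elongation. The 10 genes were *Polr2a*, *Polr2b*, *Polr2c* and *Polr2d* for the polymerase, *Cdk9*, *Ccnt1*, *Ccnt2* and *Hexim1* for the elongation kinase P-TEFb and its inhibitor, and *Supt5h* and *Supt6h* for the elongation factors SPT5 and SPT6. A line of the gene table was accepted where its gene name was one of these and its coordinates fell on that gene in the mouse genome build mm9, and 9 of the 10 genes had such a line among 11608 lines. *Polr2d* had none. The line that bears its name lies at chr17:46767580-46782093, where the transcript accession belongs to *Klc4*, a kinesin light chain gene. The line at the *Polr2d* locus itself (chr18:31948813-31956355) carries the name 9630014M24Rik with a *Polr2d* transcript accession. Such shifted names were found in 89.5% of the 2953 lines with a matched accession and no enriched interval in either *Parp14*+/+ library, and in 1.41% of the 6897 other lines with a matched accession.

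Chromatin from in vitro differentiated Th2 cells was immunoprecipitated with an antibody to polymerase II phosphorylated at serine 2 of its C-terminal repeat. Naïve CD4+ CD62L+ T cells came from spleens of C57BL/6 mice aged 6 to 8 weeks, either wild-type (*Parp14*+/+) or lacking *Parp14* (*Parp14*−/−). They were activated through CD3 and CD28 with IL-4 at 10 ng/ml and anti-IFN-γ for 3 days, and expanded with IL-2 at 50 U/ml and IL-4 for 4 days, in the absence or presence of PJ34, an inhibitor of ADP-ribosyltransferases. The sample labels put PJ34 at 10 µM and describe it as given to differentiated cells, whereas the published methods put it at 5 µM in the culture. The groups were *Parp14*+/+, *Parp14*+/+ + PJ34, *Parp14*−/− and *Parp14*−/− + PJ34, each with 1 library, so that differences between them have no replicate check and cannot be separated from differences between libraries. Each library held 8200000 alignments. A library of input DNA, mixed from both genotypes, served as the reference for calling enriched intervals and has no value per gene.

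Serine 2 phosphorylation marks polymerase that has left the promoter region and is transcribing the gene body. The main kinase that places it is P-TEFb, a pair of CDK9 with cyclin T1 or cyclin T2. HEXIM1 holds P-TEFb inactive in a ribonucleoprotein with 7SK RNA. SPT5, a subunit of DSIF, and SPT6 travel with the polymerase and help it through nucleosomes. The 10 genes therefore encode the protein that was precipitated and the machinery that modifies it, and the values below describe polymerase on these genes, not the amount of the proteins.

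At *Parp14* itself (chr16:35832964-35871586, minus strand), enriched intervals covered 59.2% of the gene in *Parp14*+/+ and 53.9% in *Parp14*+/+ + PJ34. They covered 6.95% in *Parp14*−/− and 8.51% in *Parp14*−/− + PJ34, in each case as 1 interval over the first few kilobases of the gene. The peak heights of the gene, counted in overlapping fragments, were 8 and 11 in the wild-type libraries without and with PJ34, and 6.67 in both libraries from *Parp14*−/− cells. Values given below as series of 4 follow the order of the groups above. The pattern of cover thus followed the genotype labels. The height of the interval over the start did not, with 9 and 11 in the wild-type libraries and 13 in both *Parp14*−/− libraries.

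The Th2 identity of the cells was checked with 16 marker genes, 14 of which had a line. *Gata3*, the lineage factor of Th2 cells, was fully covered by intervals in the 4 libraries, with peak heights of 60, 58, 45 and 43. *Il4* reached 61, 39, 29 and 18, *Il13* 38, 33, 17 and 10, and *Il5* 21, 21, 4 and 6 with no interval in either *Parp14*−/− library. The 4 Th2 markers summed to 180, 151, 95 and 77. The T cell genes *Cd3e* (8, 9.5, 9 and 6.5) and *Cd4* (5.5, 6.5, 4 and 7) were low in comparison. *Cd4* had no interval in *Parp14*−/−, and 6.34%, 10.8% and 7.61% of the gene lay inside intervals in the other libraries. The Th1 markers *Tbx21* and *Ifng* also carried intervals in the 4 libraries and summed to 50, 42, 42 and 33. *Cd8b1* and *Lyz2* had no line. Neither *Cd8a* nor *Ms4a1* or *Itgam* had an interval in any of these libraries. *Cd79a* had peak heights of 38, 36, 34 and 28, but at most 0.448% of the gene lay inside an interval. *Csf1r* had 8, 8.5, 6 and 5.5, with 11.7%, 19.5%, 0 and 0.755% of the gene inside intervals. Any part of marker differences in the values of the elongation genes was not tested.

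The unit used below, average peak height, takes the tallest pile-up of fragments in each active region (a stretch enriched in any library) and averages it over the regions assigned to a gene. It is read at single positions, and a longer region offers more positions at which to find it. Regions over the 9 genes ran from 1650 to 53850 bases, and the part of their length in the heights was not tested. In *Parp14*+/+ it ran from 7.5 at *Polr2b* to 16 at *Polr2a*, and the other members lay between, with 15 at *Hexim1*, 13 at *Supt6h*, 12.3 at *Ccnt1*, 11 at *Cdk9*, 10 at *Polr2c*, 9.5 at *Supt5h* and 8.2 at *Ccnt2*. Taking the summed heights as counts, the exact Poisson 95% interval was 11.8 to 21.2 at *Polr2a* and 4.2 to 12.4 at *Polr2b*, so that even the ends of this order overlapped. *Hexim1* stood first in the other 3 libraries, whereas the lowest place went to *Polr2c* in both PJ34 libraries and to *Ccnt2* in *Parp14*−/−. Among the 8551 lines with an interval in at least 1 of the 4 libraries, *Polr2a* lay above 78.4%, 73.7%, 81.9% and 88.2% of lines. *Hexim1* lay above 75.6%, 87.5%, 83.5% and 92.8%.

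**Figure D1:**
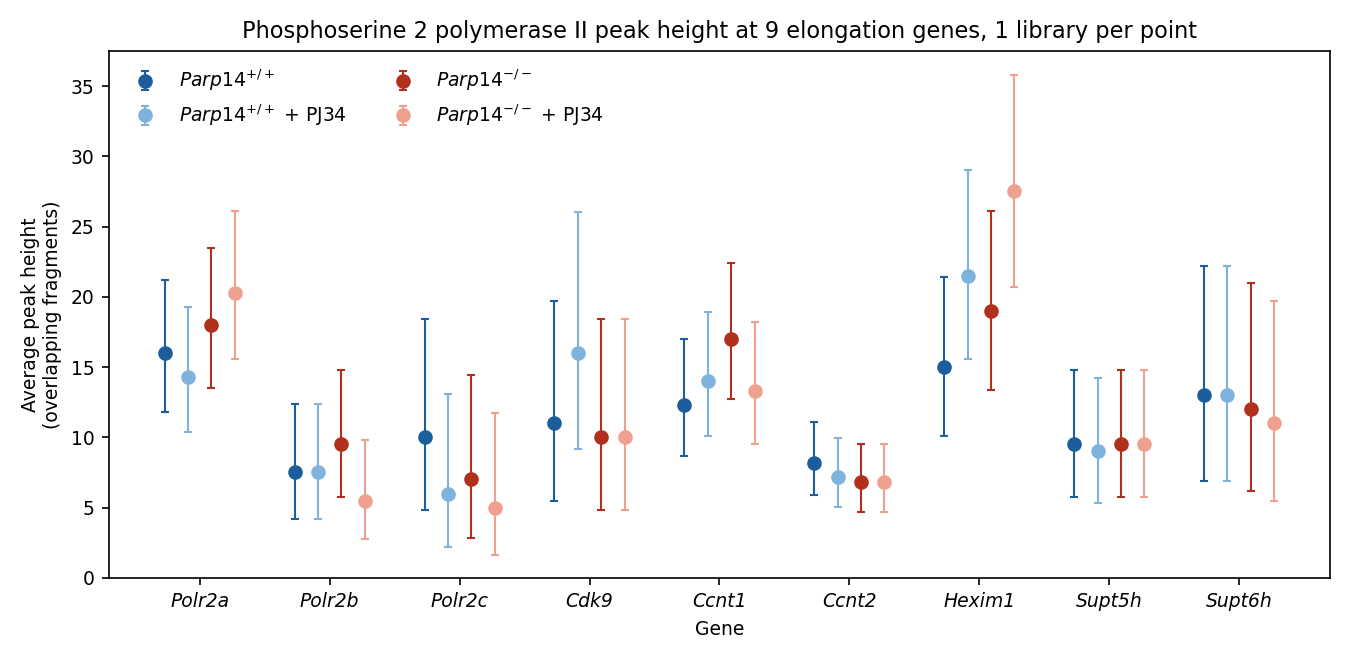
Average peak height in overlapping fragments (vertical axis) of the 9 genes (horizontal axis) in the 4 libraries, 1 point per library. Bars give the exact Poisson 95% interval of the summed heights taken as counts, which covers counting error at most. *Hexim1* runs from 15 in *Parp14*+/+ to 27.5 in *Parp14*−/− + PJ34, and *Supt5h* lies between 9 and 9.5.

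*Polr2a* (gene ID 20020, chr11:69547912-69571725, minus strand) encodes RPB1, the catalytic subunit whose C-terminal repeat carries the phosphoserine. Its average peak heights over 3 active regions were 16, 14.3, 18 and 20.3. Each library had a single interval at the gene, which began upstream of the start and reached over the first part of the gene, with heights of 39, 36, 45 and 52. The summits lay 54 bases downstream of the RefSeq start in both *Parp14*+/+ libraries and 70 bases downstream of it in both *Parp14*−/− libraries, in an annotated untranslated exon. This one peak made up 81.2%, 83.7%, 83.3% and 85.2% of the summed heights of the gene, and the remaining active regions together added 9, 7, 9 and 9. The highest values were thus those of the *Parp14*−/− libraries, but the *Parp14*+/+ to *Parp14*−/− ratio of 0.889 had a 95% interval of 0.59 to 1.34, and with PJ34 in both genotypes the ratio was 0.705 (0.466 to 1.06). Intervals of ratios here and below are exact binomial (Clopper-Pearson) intervals of the summed heights taken as counts. They cover counting error at most, and only roughly, since a height is a maximum of a pile-up.

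*Polr2b* (gene ID 231329, chr5:77739523-77778349, plus strand) encodes RPB2, the second large subunit of the catalytic core. Its peak heights were 7.5, 7.5, 9.5 and 5.5, averaged over 2 active regions, 1 at its start and 1 around its 3′ end. The region at the start also reaches 2610024G14Rik on the opposite strand and held no interval in these libraries, but its heights enter the average. No interval overlapped the gene body in any of the 4 libraries. The interval assigned to it lay past its 3′ end, with heights of 10, 6 and 12 in the first 3 libraries and none in *Parp14*−/− + PJ34. The summits were 852, 1748 and 2196 bases beyond the end of the gene, in an intron of *Igfbp7*, which lies on the opposite strand and meets *Polr2b* tail to tail. ChIP does not separate the strands, so polymerase running past *Polr2b* and polymerase on *Igfbp7* cannot be told apart.

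*Polr2c* (gene ID 20021, chr8:97381405-97388142, plus strand), which encodes the RPB3 subunit around which the core assembles, had peak heights of 10, 6, 7 and 5 and an interval in the untreated libraries only. The intervals reached 10 in *Parp14*+/+ and 7 in *Parp14*−/−, overlapped the last 192 bases of the gene as the table draws it, and had summits 3619 and 1523 bases past that end. The annotation extends a *Polr2c* transcript over this stretch, and *Dok4* lies there on the opposite strand. With PJ34 its heights were the lowest of the 9 genes in both genotypes, and the *Parp14*+/+ to *Parp14*+/+ + PJ34 ratio of 1.67 had an interval of 0.549 to 5.58. At the locus of *Polr2d*, an RPB4 stalk subunit gene, the line under another name had heights of 10, 11, 8 and 9, and the intervals within 10 kb had their summits outside the gene.

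*Cdk9* (gene ID 107951, chr2:32562958-32568305, minus strand) encodes the P-TEFb kinase subunit. It had peak heights of 11, 16, 10 and 10 over 1 active region, which runs on into *Fpgs*, the next gene downstream on the same strand. The highest interval had its summit past the 3′ end of the table's gene in both *Parp14*+/+ libraries (height 11 without and 16 with PJ34) and in *Parp14*−/− + PJ34 (10). In *Parp14*−/−, intervals of height 10 had their summits past that end and in an intron. The annotation extends *Cdk9* beyond the table's end, so that the summits past it in the untreated libraries lie in an annotated *Cdk9* exon, while the highest summits of the PJ34 libraries lie between *Cdk9* and *Fpgs*. A summit near the start, 95 bases downstream of the RefSeq start, was found only in *Parp14*−/− + PJ34 among the 4 libraries, with a height of 9. The library of *Parp14*+/+ + PJ34 stood highest, and its ratio to *Parp14*−/− + PJ34 was 1.6 (0.683 to 3.94).

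The cyclin genes differed in where polymerase was found. *Ccnt1* (gene ID 12455, chr15:98373642-98398067, minus strand) had average heights of 12.3, 14, 17 and 13.3. An interval over its start reached 12 in *Parp14*+/+, and in the *Parp14*−/− libraries 19 without and 22 with PJ34. No interval was called there in *Parp14*+/+ + PJ34. The average of 14 in that library takes in the start region all the same, so the missing call does not show a lower height there. The summits fell 282, 330 and 266 bases upstream of the RefSeq start, in an annotated untranslated exon of *Ccnt1*, where the non-coding 9330020H09Rik is also annotated on the opposite strand. About 9 kb past the 3′ end, at the start of 2310037I24Rik, the next gene downstream on the same strand, each of the 4 libraries had a further interval, with heights of 17, 21, 24 and 13. At this downstream site *Parp14*−/− was highest and *Parp14*−/− + PJ34 lowest, whereas at the start *Parp14*−/− + PJ34 was highest, so that the average over regions mixed opposite orders. For PJ34 in *Parp14*−/− cells, the untreated to treated ratio was 1.28 (0.826 to 1.98) from the average and 0.864 (0.442 to 1.67) from the peak at the start.

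*Ccnt2* (gene ID 72949, chr1:129670741-129701414, plus strand) had 5 active regions and average heights of 8.2, 7.2, 6.8 and 6.8. It had no interval with a summit within 1 kb of its start in these libraries. The highest interval had its summit past the 3′ end of the table's gene in the 4 libraries, with heights of 11, 12, 12 and 10, and in both libraries without PJ34 it reached back over the gene. The 4 averages lay within 1.21-fold of each other, and the *Parp14*+/+ to *Parp14*−/− ratio was 1.21 (0.747 to 1.96).

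*Hexim1* (gene ID 192231, chr11:102977639-102981039, plus strand), a gene without introns that encodes the P-TEFb inhibitor, had average heights of 15, 21.5, 19 and 27.5, with the highest over the lowest at 1.83. One interval lay over its start in each library, and its heights were 18, 31, 27 and 43. The summits lay 118, 102, 70 and 102 bases upstream of the start. The other active region that the table assigns to *Hexim1* does not overlap the gene. It contributed 12, 12, 11 and 12, which are also the values of the *Hexim2* line. The spread of the average over the 4 libraries therefore came from the peak at the *Hexim1* start. That peak was higher with PJ34 in both genotypes, with untreated to treated ratios of 0.581 (0.306 to 1.07) in *Parp14*+/+ and 0.628 (0.373 to 1.04) in *Parp14*−/−. It was also higher in *Parp14*−/− than in *Parp14*+/+, with ratios of 0.667 (0.346 to 1.26) without and 0.721 (0.439 to 1.17) with PJ34. Each of these 4 intervals includes 1, so as deposited none of the differences exceeds the counting error that these intervals allow. The factor of the library scaling described below is 1.1 for PJ34 in *Parp14*−/−. It exceeds the upper end of 1.04, so that this interval excludes 1 once scaled.

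*Supt5h* (gene ID 20924, chr7:29099913-29123738, minus strand), which encodes the large subunit of DSIF, had average heights of 9.5, 9, 9.5 and 9.5. Its 4 ratios ran from 0.947 to 1.06, with 95% intervals that reached from 0.469 to 2.13. The highest interval had its summit in the neighbouring *Timm50* in both *Parp14*+/+ libraries. *Supt6h* (gene ID 20926, chr11:78020526-78059204, minus strand), the SPT6 gene, had heights of 13, 13, 12 and 11 from 1 active region of 53850 bases that also takes in *Proca1* and *Sdf2*. *Sdf2* starts head to head with *Supt6h*, and the summits at this shared start in *Parp14*+/+ (13) and *Parp14*−/− + PJ34 (10) lie in untranslated exons of both genes. For both factors, heights were nearly level across the libraries.

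**Figure D2:**
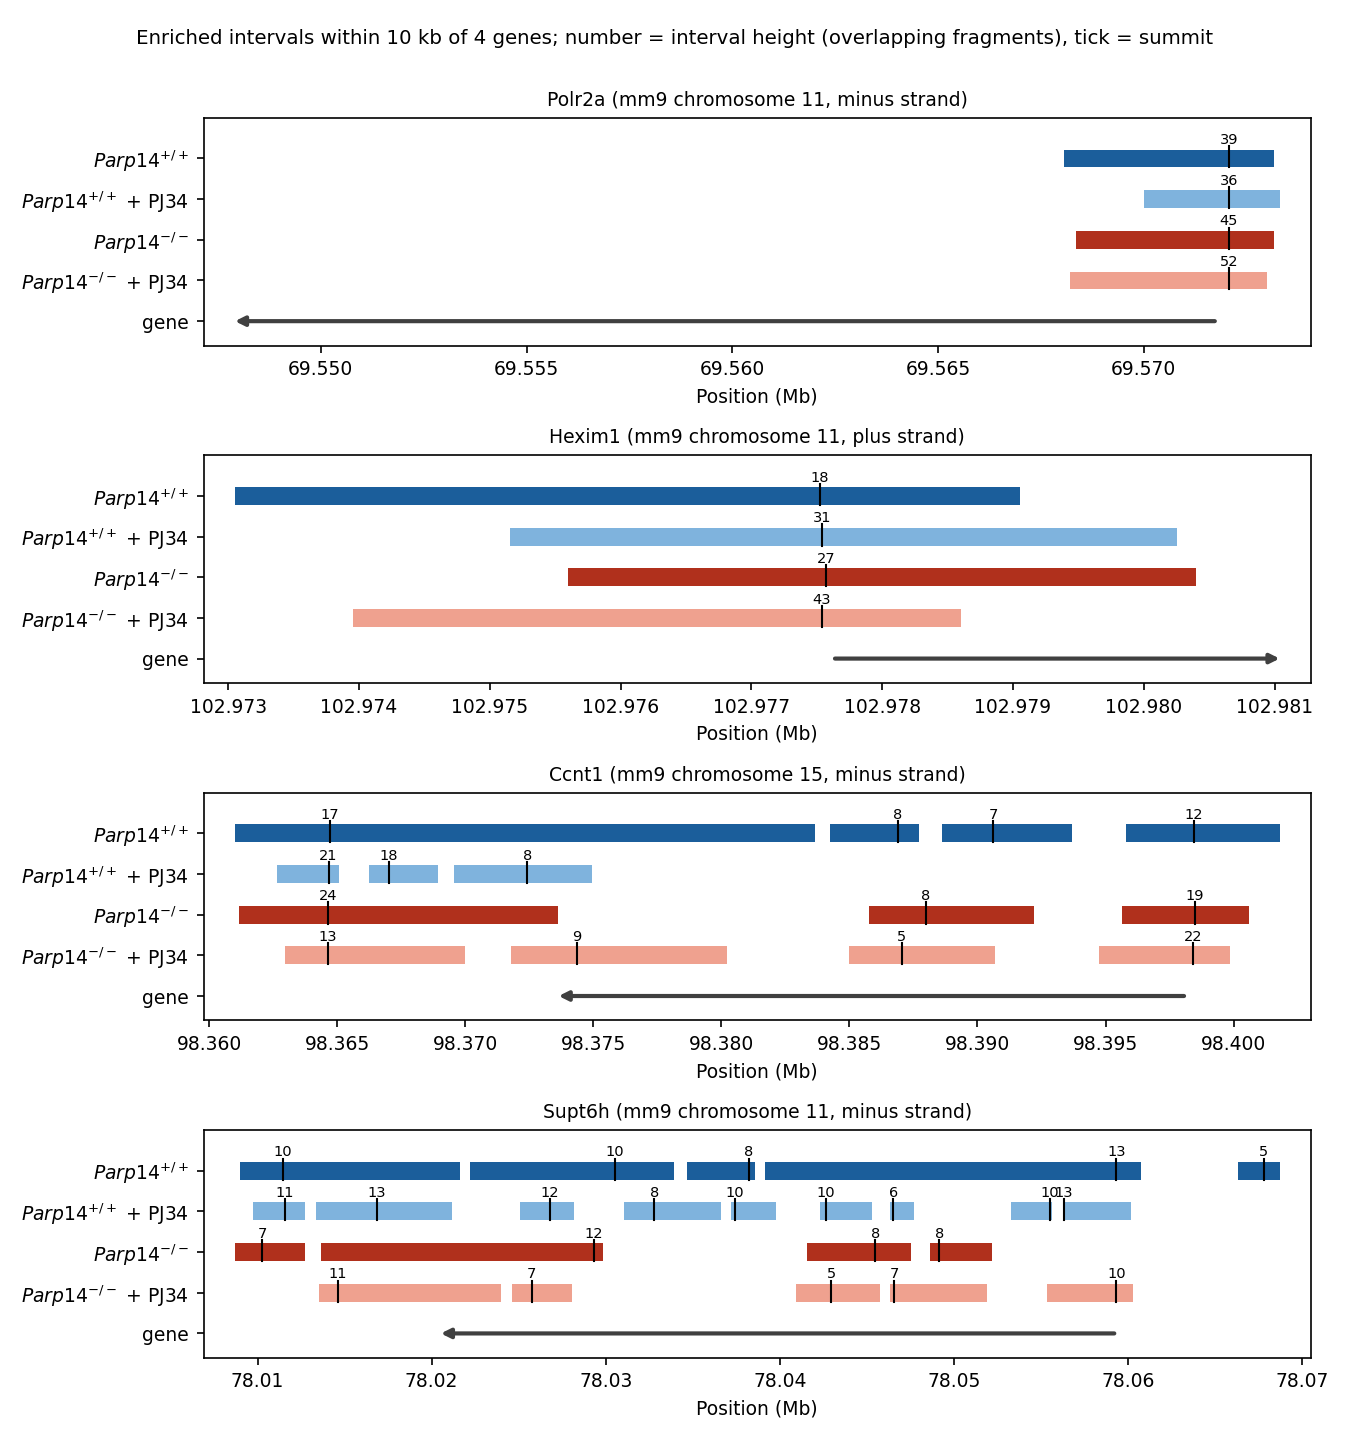
Enriched intervals (coloured bars) within 10 kb of *Polr2a*, *Hexim1*, *Ccnt1* and *Supt6h*, by mm9 position in megabases (horizontal axis) and library (rows), with the gene drawn as an arrow in the direction of transcription, a tick at each summit and the height above it in overlapping fragments. The *Polr2a* and *Hexim1* intervals sit at the gene start in the 4 libraries. At the *Ccnt1* start no interval was called in *Parp14*+/+ + PJ34, and the height there is not drawn.

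The position of the highest interval within 10 kb of the gene was compared with that over all lines. Of the 9 genes, 9, 8, 9 and 7 had an interval in that range in the 4 libraries, and the summit of the highest lay within 1 kb of the start at 3, 2, 2 and 3 of them. *Polr2a* and *Hexim1* were in each of these counts, joined by *Supt6h* in *Parp14*+/+ and by *Ccnt1* in *Parp14*−/− + PJ34. Over the lines with an interval in that range the same held for 16.5%, 17.1%, 20.5% and 22.1%. A highest summit past the 3′ end of the table's gene was found at 6 of 9, 6 of 8, 5 of 9 and 4 of 7 genes, beside 49.6%, 48%, 44.9% and 44.5% of lines. *Supt6h* in *Parp14*+/+ + PJ34 and *Cdk9* in *Parp14*−/−, each with a tie between a summit past the end and one inside the gene, were counted as past the end.

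The first comparison asked how peak heights differed with the genotype in untreated cells. The *Parp14*+/+ to *Parp14*−/− ratio of the 9 genes had a median of 1, with a range of 0.725 at *Ccnt1* to 1.43 at *Polr2c*, and it was above 1 at 4 genes, below 1 at 4 and equal to 1 at *Supt5h*. Over the 8538 lines measured in both libraries the median was also 1. With the fold limits of 1.4 and 0.7, *Polr2c* was past the upper limit, as were 12.7% of lines. No gene of the 9 was past the lower limit, as were 11.0% of lines.

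With PJ34 in both genotypes, the *Parp14*+/+ + PJ34 to *Parp14*−/− + PJ34 ratio had a median of 1.06 over the 9 genes and 1.14 over 8540 lines, a shift of 0.193 on the log2 scale that runs through the whole pair of libraries. *Cdk9* was past the upper limit at 1.6, as were 22.6% of lines, and no gene was below the lower limit, as were 5.80% of lines. *Polr2a* lay just inside that limit at 0.705. Once each library was scaled so that its median line had a ratio of 1 to *Parp14*+/+, *Polr2a* was at 0.614 and *Hexim1* at 0.681, both then past the lower limit, as were 12.2% of lines after the same scaling. *Cdk9* was at 1.39 and no longer past the upper limit, beside 12.5% of lines that were. *Ccnt1* and *Ccnt2* moved from above 1 to below it, to 0.915 and 0.923.

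PJ34 in wild-type cells was examined with the *Parp14*+/+ to *Parp14*+/+ + PJ34 ratio, with a median of 1 over the 9 genes and 0.959 over 8540 lines. *Polr2c* was above 1.4, beside 7.20% of lines. *Cdk9* at 0.688 (0.288 to 1.58) and *Hexim1* at 0.698 (0.423 to 1.14) were below 0.7, beside 10.9% of lines. After the scaling these 2 genes stood at 0.717 and 0.728, inside the limit.

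In cells without *Parp14*, the *Parp14*−/− to *Parp14*−/− + PJ34 ratio had a median of 1 over the 9 genes and 1.08 over 8539 lines (0.115 on the log2 scale). *Polr2b* at 1.73 (0.781 to 4.02) was above 1.4, as were 15.1% of lines. *Hexim1* at 0.691 (0.445 to 1.06) was below 0.7, as were 6.29% of lines, and remained so after scaling, at 0.628, beside 10.7% of lines. *Polr2c* stood on the upper limit at 1.4 without passing it. With a pseudocount of 1 added to each height, 4 of the 7 ratios past a limit came to lie inside it, namely *Polr2c* at 1.38 in the untreated genotype comparison, *Cdk9* at 0.706 and *Hexim1* at 0.711 for PJ34 in *Parp14*+/+, and *Hexim1* at 0.702 for PJ34 in *Parp14*−/−. In the 4 comparisons together, none of the 36 ratios as deposited had a 95% interval that excluded 1, beside 2.43% of the ratios of all lines. Scaling moves an interval by the same factor as its ratio. The factors of 1.15 with PJ34 in both genotypes and 1.1 for PJ34 in *Parp14*−/− exceed the upper ends of 1.06 at *Polr2a* and *Hexim1*. After scaling, the intervals of *Polr2a* (0.614) and *Hexim1* (0.628) in these respective comparisons thus excluded 1. The same held for 2.11% and 0.75% of lines below the limit. The 4 comparisons share libraries and are not independent of each other.

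The length of gene inside enriched intervals varied more than the peak heights. Over the 9 genes, of 195733 bases in all, intervals covered 93479 bases (47.8%) in *Parp14*+/+ and 42570 (21.7%) when PJ34 was added. In cells without *Parp14* they covered 42923 bases (21.9%), and 48128 (24.6%) with PJ34. *Parp14*+/+ was thus the library with the widest cover. Over the 8551 lines the summed cover was 21.3%, 17.3%, 15.5% and 13.7%, and the libraries themselves had 11692, 12014, 10228 and 8841 intervals over 98.1, 82.4, 73.8 and 65.5 Mb, with a median interval height of 9 in each. Counting only intervals with a height of at least 10, the cover of the 9 genes was 67979, 21147, 22543 and 15226 bases, so that *Parp14*+/+ again had the widest cover while *Parp14*−/− + PJ34 went from the next widest to the narrowest.

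*Supt6h* was covered over 95% of its length in *Parp14*+/+ and over 55.8%, 48.9% and 54.6% in the other libraries, while its heights stayed between 11 and 13. *Ccnt1* was covered over 85.3%, 5.36%, 36.3% and 63.8%, the lowest value being that of *Parp14*+/+ + PJ34. *Ccnt2* had 51.4%, 22.5%, 7.38% and 5.87%, and *Supt5h* 47.6%, 24.3%, 17.4% and 1.63%, with the same order of the libraries at both. In *Parp14*+/+ this cover lay mostly in the later part of the gene, with 92.4% of the 3′ portion of *Supt5h* (split at its midpoint) and 81.3% of that of *Ccnt2*. *Polr2a* differed from these genes, with no cover of its 3′ portion in the 4 libraries and 15.4%, 7.24%, 14.2% and 14.8% of the gene covered. *Cdk9* had 66.2%, 49.4%, 44.9% and 88.8%, and *Hexim1* 41.5%, 76.8%, 81.2% and 28.3%. At *Hexim1* the library with the tallest peak, *Parp14*−/− + PJ34, thus had the narrowest cover.

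Counted by gene, cover was wider in *Parp14*+/+ than in *Parp14*−/− at 6 of the 9 genes, narrower at *Hexim1* and equal at *Polr2b* and *Polr2c*, beside 49.9% of lines that were wider and 18.6% that were narrower. Cover was wider in *Parp14*+/+ than in *Parp14*+/+ + PJ34 at 7 of 9 genes, narrower at *Hexim1* and equal, with none, at *Polr2b*, beside 44.4% and 25.6% of lines. With PJ34 in both genotypes, 4 genes were wider in *Parp14*+/+ + PJ34 and 3 narrower, beside 45% and 21.8% of lines. In *Parp14*−/− cells, 4 genes were wider without PJ34 and 4 with it, beside 34.4% and 25.3% of lines.

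**Figure D3:**
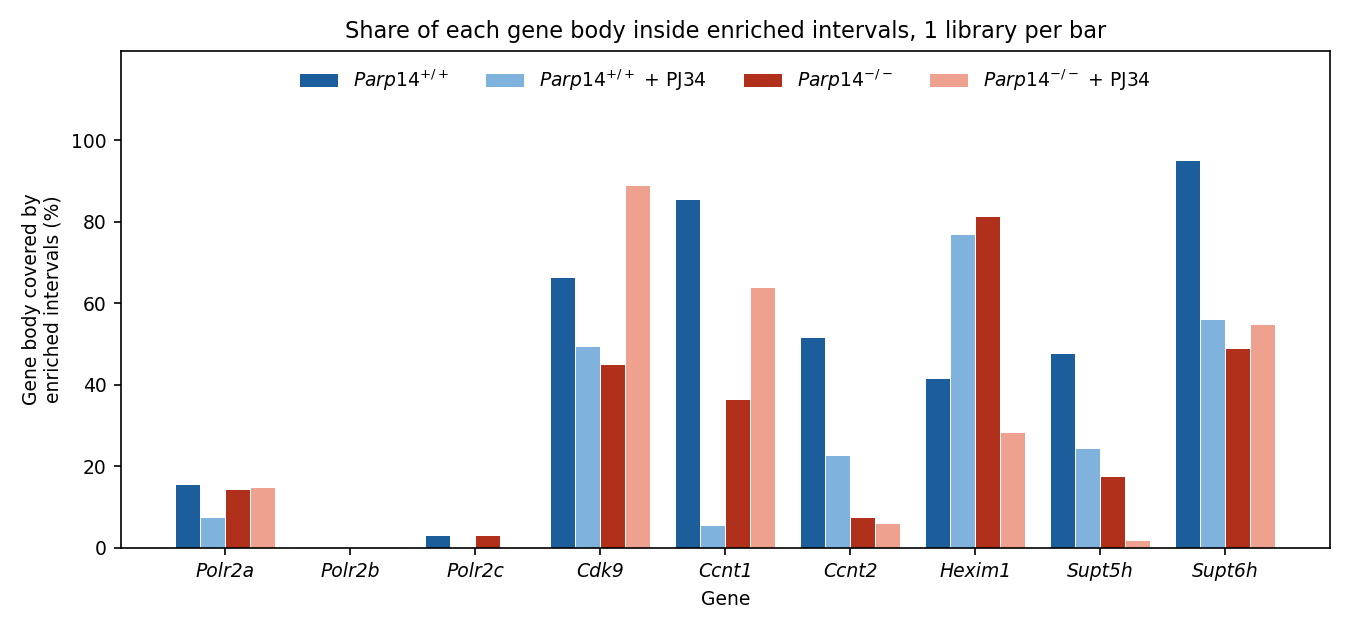
Percent of each gene body inside enriched intervals (vertical axis) at the 9 genes (horizontal axis), 1 bar per library. *Supt6h* reaches 95% in *Parp14*+/+, and no interval overlaps *Polr2b* in these libraries.

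RefSeq promoter sequences (250 bases before to 50 after the start) were found for 7 of the 9 genes. Those of *Polr2a*, *Hexim1* and *Ccnt1* are shown, since the tallest peaks at a gene start among the 9 genes lie in or beside them. The sequences are from the GRCm38.p6 RefSeq table and were placed on mm9 by exact match, at chr11:69572086-69572385 (minus strand) for *Polr2a*, chr11:102977389-102977688 (plus strand) for *Hexim1* and chr15:98398118-98398417 (minus strand) for *Ccnt1*, each printed 5′ to 3′ on the strand of the gene. Capitals mark the motifs, searched on both strands, which were the TATA element TATAAA with a longer variant TATATAA, the CCAAT box and the GC box GGGCGG.
Polr2a: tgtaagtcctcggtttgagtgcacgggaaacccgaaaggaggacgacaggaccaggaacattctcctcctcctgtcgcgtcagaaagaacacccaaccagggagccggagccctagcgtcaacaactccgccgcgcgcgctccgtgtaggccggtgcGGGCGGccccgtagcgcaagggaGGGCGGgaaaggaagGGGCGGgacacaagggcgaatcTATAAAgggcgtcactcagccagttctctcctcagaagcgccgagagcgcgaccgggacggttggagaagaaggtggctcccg
Hexim1: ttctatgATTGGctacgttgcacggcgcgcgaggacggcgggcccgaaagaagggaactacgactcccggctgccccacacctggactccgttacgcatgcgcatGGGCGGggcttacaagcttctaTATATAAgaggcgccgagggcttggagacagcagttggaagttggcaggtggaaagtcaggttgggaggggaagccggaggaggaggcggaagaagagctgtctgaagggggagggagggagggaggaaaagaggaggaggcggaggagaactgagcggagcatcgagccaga
Ccnt1: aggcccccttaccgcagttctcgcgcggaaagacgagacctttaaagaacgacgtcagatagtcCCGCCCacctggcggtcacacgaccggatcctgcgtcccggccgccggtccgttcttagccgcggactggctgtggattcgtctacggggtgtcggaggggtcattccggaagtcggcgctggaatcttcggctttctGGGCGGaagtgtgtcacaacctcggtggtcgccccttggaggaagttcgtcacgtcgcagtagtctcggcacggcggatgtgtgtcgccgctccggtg

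In *Polr2a*, TATAAA begins 33 bases before the start and is preceded by GGGCGG at 93, 70 and 55 bases before it. The polymerase summits of the 4 libraries lay just downstream of the printed window. In *Hexim1*, TATATAA begins 123 bases before the start, GGGCGG 145 bases before it, and CCAAT is found on the opposite strand (as ATTGG) near the 5′ end of the window. The 4 *Hexim1* summits lay inside the window. In *Ccnt1*, GGGCGG begins 48 bases before the start and is found on the opposite strand (as CCGCCC) 186 bases before it, with no match to the other motifs in the window, and the summits of the 3 libraries with a peak there lay just upstream of it. Of 32851 promoters of this length, 13.6% hold TATAAA on either strand, while the share is 3.24% for TATATAA, 37.4% for the CCAAT box and 35.7% for GGGCGG. These motifs do not overlap one another in the printed sequences. The base composition of the windows was 63.7% G and C in *Polr2a*, 61% in *Hexim1* and 63.7% in *Ccnt1*.

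A wider list of 47 genes of the elongation machinery was read in the same way, of which 43 had a line at their locus and 38 had an interval in at least 1 of the 4 libraries. It held the other polymerase subunits, P-TEFb partners, the super elongation complex, NELF, the partners of SPT5 and SPT6, the PAF1 complex, other kinases and the phosphatases of the C-terminal repeat, FACT and TFIIS. The *Parp14*+/+ to *Parp14*−/− ratio was above 1.4 at 2 of the 38 genes (12.7% of all lines) and below 0.7 at 3 (11.0% of lines), with a median of 1.09. With PJ34 in both genotypes 10 were above (22.6% of lines) and 2 below (5.80%), with a median of 1.19 beside 1.14 over all lines. The *Parp14*+/+ to *Parp14*+/+ + PJ34 ratio was above 1.4 at 1 gene (7.20% of lines) and below 0.7 at 3 (10.9%), with a median of 0.99. In *Parp14*−/−, 9 were above (15.1% of lines) and 3 below (6.29%), with a median of 1.15 beside 1.08 over all lines. Scaling, added for these genes after the values were seen, left 7 above and 2 below with PJ34 in both genotypes (12.5% and 12.2% of lines), and gave 3 above and 3 below for PJ34 in *Parp14*+/+ (9.53% and 9.5%) and 6 above and 5 below for PJ34 in *Parp14*−/− (8.82% and 10.7%). The 10 genes above the limit with PJ34 in both genotypes were 2 of 8 in the super elongation complex, 2 of 5 in the PAF1 complex and 2 of 6 in the group of other kinases, cyclins and their assembly factor. They also held 1 of 5 polymerase subunits, 1 of 4 P-TEFb partners, 1 of 2 NELF genes and 1 of 2 partners of SPT5 and SPT6. None of the 4 phosphatase genes or of the 2 genes of FACT and TFIIS was above it. The 9 in the comparison for PJ34 in *Parp14*−/− cells held 3 genes of the group of kinases, cyclins and their assembly factor, 2 polymerase subunits and 2 genes of the super elongation complex.

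Among the 152 ratios of these 38 genes, 2 lay past the limits with a 95% counting interval that excluded 1, those of *Mllt3* and *Cdk12*, both in the *Parp14*+/+ + PJ34 to *Parp14*−/− + PJ34 comparison. Over all lines the same held for 2.28% of ratios in the 4 comparisons together, and 2.59% of lines were above the limit in this way in that comparison. *Mllt3*, which encodes the AF9 subunit of the super elongation complex, had heights of 16.8, 14.2, 13 and 8.8 and a ratio of 1.61 (1.09 to 2.41). *Cdk12*, which encodes another kinase of serine 2, had heights of 11.7, 15.3, 9.33 and 9.33 and a ratio of 1.64 (1.01 to 2.73). Once the libraries were scaled, the ratios were 1.41 (0.952 to 2.1) at *Mllt3* and 1.43 (0.876 to 2.38) at *Cdk12*, and both intervals included 1. The peak over the start of *Cdk12* reached 18 in wild-type cells, 27 with PJ34 added and 12 in untreated *Parp14*−/− cells, and no interval was called there in *Parp14*−/− + PJ34. The cover of *Cdk12* was 57.1%, 23.1%, 6.16% and 0.

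*Paf1*, the gene that names the PAF1 complex, was covered over 100% of its length in both *Parp14*+/+ libraries and over none of it in either *Parp14*−/− library. Its peak heights were nevertheless 8, 8, 7 and 9. In *Parp14*+/+ the interval had its summit in the neighbouring *Samd4b*, and in *Parp14*+/+ + PJ34 in an exon of *Paf1* itself. At *Paf1* the genotypes thus differed in whether an interval lay over the gene, while the heights lay between 7 and 9. In *Parp14*−/− an interval was assigned to the gene but did not overlap it. The share of all lines with such a difference in cover is not given here.

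The genes whose heights were most like those of *Polr2a* over the 4 libraries, by the sum of absolute log2 differences among 4648 lines with an interval in each library, were *Stip1*, *Trpt1* and *Fermt3* (listed as BC032204). Each had heights of 17, 16, 18 and 20 and a summed difference of 0.27. They are neighbours on chromosome 19 that share 1 active region, so these are 3 readings of a single peak.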

How the data were processed

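The authors aligned 36-nt reads by ELAND (build mm9), kept 8200000 alignments per library once duplicates were gone, and called intervals against Input with SICER (window 150 bp, fragment 150 bp, gap 450 bp). The submitters' processing notes name mm9 and SICER. The deposited signal is the average peak height per gene, over active regions merged across the 8 libraries of the table. Per the file headers, 8 per-sample columns of that table belong to samples outside this series and were not used. The deposited tracks give each interval with its summit and height.

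Ratios of heights were formed between libraries and given with exact binomial 95% intervals (fold limits 1.4 and 0.7). No test between conditions was made, since each group had 1 library and a model of genotype and PJ34 without their interaction would take that interaction as error. Height is a maximum of a pile-up and not strictly a count. The intervals take summed heights as counts, so they are approximate and cover counting error at most. Active regions can take in neighbouring genes. Lines were kept with an interval in at least 1 of the 4 libraries. Interval coordinates were made 1-based. Gene loci and annotations came from GENCODE M1 on the same build. Genes of the wider list were accepted by name or transcript accession at their locus, with RefSeq names of GRCm38.p6.

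Named genes were the members, genes of the wider list past a fold limit with an interval excluding 1 (at most 3 highest and 3 lowest per ratio), those with no cover in some libraries and over 50% in others, and the 3 genes most like *Polr2a*. The values of 1 cell type marker are not reported here. The members and lists were chosen with earlier results of these data known. Alternatives were library scaling (for the wider list added after seeing the data), a pseudocount of 1, track heights, covered bases, fold limits of 1.2 and 0.83, other line filters (all lines, or a summed height of at least 50), intervals of height at least 10, cover of at least 50%, and acceptance by name or locus alone. The interval method was tested on simulated independent Poisson counts only. Those are not maxima of pile-ups, so the test does not show how well the intervals cover peak heights. Python 3.11.15, pandas 2.3.3, NumPy 2.4.6, SciPy 1.17.1, pysam 0.24.0 and matplotlib 3.10.9 were used.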

Additional observations from a re-analysis of the deposited data

Results flagged for a closer look

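Opposite directions of the same contrast in the 2 genotypes, or with and without PJ34, were found at 3 of the 9 genes, beside 54.1% of 8530 lines. At *Polr2a* the untreated to PJ34 ratio was 1.12 in *Parp14*+/+ and 0.885 in *Parp14*−/−. At *Ccnt1* it was 0.881 in *Parp14*+/+ and 1.28 in *Parp14*−/−. The *Parp14*+/+ to *Parp14*−/− ratio of *Polr2b* was 0.789 without PJ34 and 1.36 with it, and that of *Ccnt1* was 0.725 without and 1.05 with it. With 1 library per group the differences between these ratios were not tested. With track heights over the gene, the *Ccnt1* ratios of 0.881, 1.28 and 1.05 became 2.12, 0.864 and 0.364, each on the other side of 1. These track heights belong to different peaks. The 17 of *Parp14*+/+ has its summit 8937 bases past the end, and the 8 of *Parp14*+/+ + PJ34 has it 1225 bases past the end. The 19 and 22 of the *Parp14*−/− libraries lie at the start. The downstream intervals of 21, 24 and 13 did not overlap the gene and were left out. Scaling moved the *Ccnt1* genotype ratio with PJ34 to 0.915, on the same side of 1 as the ratio without it. Other ratios of *Ccnt2*, *Supt5h* and *Supt6h*, which lay between 1 and 1.09 as deposited, came to lie below 1 by the scale factor alone. Nothing is read from such turns, and after scaling 6 of the 9 genes and 61.1% of lines had opposite directions.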

How the results depend on the processing

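No paired analysis was possible because each group had 1 library and so no replicates to pair, and the genotypes and PJ34 were not used as pairs of each other. Heights of about 5 to 28 fragments set the precision, and neighbouring genes, the PJ34 dose and the missing replicates limit what the ratios show. Under scaling and the pseudocount of 1 the single-gene ratios stayed inside their counting intervals (36 of 36 each), as did 26 of 29 with track heights, but these intervals are wide. The 3 that did not were *Ccnt1* for PJ34 in *Parp14*+/+ (2.12) and with PJ34 in both genotypes (0.364), both turned in direction, and *Ccnt2* for PJ34 in *Parp14*−/− (1.71, from 1). In each of these the tallest interval over the gene was a different peak in the libraries compared, so the ratios do not compare the same site. Of the 7 ratios past a fold limit, scaling brought 3 inside it and the pseudocount 4. With the intervals scaled too, those of *Polr2a* with PJ34 in both genotypes and of *Hexim1* for PJ34 in *Parp14*−/− came to exclude 1, which none did as deposited. With the wider list scaled, chosen after seeing the data, 0 ratios in place of 2 were past a limit with an interval excluding 1. Measured by covered bases, 14 of 29 stayed inside with no called ratio among them turned in direction. The median ratio over the genes was 1.71 for *Parp14*+/+ to *Parp14*−/− (1.13 over lines) and 1.02 with PJ34 in both genotypes (1.03). It was 1.96 for *Parp14*+/+ to *Parp14*+/+ + PJ34 (1.05) and 0.957 for PJ34 in *Parp14*−/− (1). A further 3 called ratios changed direction: *Cdk9* to 0.557 with PJ34 in both genotypes and to 1.34 for PJ34 in *Parp14*+/+, and *Hexim1* to 2.87 for PJ34 in *Parp14*−/−. Of these, the 1.34 of *Cdk9* also lies inside its counting interval (0.288 to 1.58). Ratios that were not called turned by covered bases too. Each *Ccnt1* ratio did, from 0.725 to 2.35, 1.05 to 0.084, 0.881 to 15.9 and 1.28 to 0.569 in the order of the report. With PJ34 in both genotypes, *Hexim1* went from 0.782 to 2.72 and *Supt5h* from 0.947 to 14.9. Smaller turns were seen at *Polr2a* and *Supt6h*. Height and cover measure different things, and the cause was not tested.

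With limits of 1.2 and 0.83, more lines passed by construction. For *Parp14*+/+ to *Parp14*−/−, 2 genes were above (27.7% of lines) and 3 below (24.5%). With PJ34 in both, 2 were above (42.5%) and 2 below (13.7%). For PJ34 in *Parp14*+/+, 1 gene was above (18%) and 2 below (27.5%), the same numbers as with the main limits, and in *Parp14*−/− 3 genes were above (33.3%) and 1 below (15.4%), again 1 as before. With a summed height of at least 50, 0 genes were above in the 4 comparisons (6.57%, 16.2%, 7.38% and 10.3% of lines, in the order of the report) and 0, 0, 0 and 1 below (10.1%, 5.98%, 2.79% and 2.3%), since fewer genes qualify. The 1 gene below was *Hexim1* for PJ34 in *Parp14*−/−, with summed heights of 38 without and 55 with PJ34. It reached 50 only in the library where it is higher, so nothing is read from this count. Intervals of height at least 10 covered 67979 bases in wild-type cells and 21147 with PJ34, and in *Parp14*−/− cells 22543 without and 15226 with PJ34, then the narrowest. An interval cover of at least 50% was reached by 4, 2, 1 and 3 genes (32.9%, 27.4%, 24.3% and 22.7% of lines), in place of 8, 7, 8 and 7 with any overlap (72%, 69.3%, 61% and 58%). Name alone and locus alone each gave 10 genes in place of 9.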

Other observations

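*Supt4a* (named *Supt4h1* in the table), which encodes the small subunit of DSIF and lies outside the rule for named genes, was singled out after its values were seen. Its line had average peak heights of 90.5, 96.5, 96 and 89.5 in the order of the groups used above, beside 9.5, 9, 9.5 and 9.5 at *Supt5h*, the gene of its partner in the complex. The interval behind these values overlaps the end of *Supt4a* but has its summit 14978, 15618, 14850 and 15042 bases past it, between genes beyond *Mir142*, with heights of 172, 182, 184 and 173. The height listed for *Supt4a* is thus that of a peak outside the gene. *Ell2*, which encodes an elongation factor of the super elongation complex and was also chosen after its values were seen, had heights of 32, 25, 34 and 24.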
